A study of Drosophila melanogaster with 4 samples.

Results

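The genes described here encode the subunits of the vacuolar proton pump (V-ATPase) of Drosophila melanogaster, taken as every gene whose RefSeq symbol starts with Vha. These are 33 of the 13568 genes named in the deposited tables, and all 33 were listed in each library. They cover 14 kinds of subunit, 9 of which are encoded by more than 1 gene (28 genes together). The rule used only the gene symbols and no measured value.

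RNA of whole larvae of the last instar was sequenced from 2 genotypes, with 2 libraries of each. HP1a mutant larvae carried Su(var)205-04 over Su(var)205-05, both alleles of the gene for Heterochromatin Protein 1a, a protein that binds methylated histone H3, and were picked by the absence of the GFP of the balancer chromosomes. Wildtype larvae were of the separate laboratory stock Oregon R. Both were kept at 25 °C and 70% humidity, and neither the sex nor the number of larvae per library is given in the sources used here, so genotype, stock background and any difference in sex or age within the stage cannot be told apart.

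The V-ATPase is a rotary motor. Its cytoplasmic V1 sector splits ATP and turns a central shaft, and the shaft turns a ring in the membrane-bound V0 sector that carries protons across. The pump acidifies lysosomes, endosomes and synaptic vesicles in animal cells, and in insects it also sits in the apical plasma membrane of the Malpighian tubule and parts of the midgut, where it energizes transport. In the fly most subunits have 1 broadly expressed gene, and several of the additional paralogs are known in adults mainly from the testis.

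Values are FPKM (fragments per kilobase of transcript, scaled to a common number of mapped fragments), summed over the transcripts of a gene. The confidence bounds of the deposited values implied between 7320733 and 7656033 fragments per library, summed over transcripts with the Cufflinks status OK. This sum is a guide to depth and not a count of all fragments of a library. Su(var)205, the mutated gene, had 27.8 and 20.1 FPKM in HP1a mutant larvae, against 125 and 137 FPKM in wildtype larvae. Over the 9447 genes tested with limma, 34.4% were lower and 6.98% higher in the mutant at a false discovery rate (FDR) of 0.01, and the median log2 fold change was -0.84. When the libraries were rescaled to the same median, the shares became 10.1% lower and 12.5% higher and the median -0.02, and quantile normalization gave 9.54% lower and 11.0% higher. Each change below is therefore given as deposited. The rescaled result is added for the Vha genes past the FDR as deposited, and that of the leading genes is given for all of them together.

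The gene with the highest level in each subunit tended to have more FPKM in the mutant than in wildtype, and the weakly expressed paralogs less. Among all 33 genes, 16 had more FPKM in both HP1a mutant libraries than in either wildtype library, where 15.4% of all 13177 detected genes did, and 14 had less in both, where 66.0% of all genes did. The remaining 3, Vha68-2, Vha44 and VhaAC39-2, overlapped between the genotypes. The 14 leading genes accounted for 12 of the 16, and the 19 other genes for all 14 of the lower ones. In the test, 27 of the 33 genes entered, and 8 fell and 3 rose at the FDR of 0.01 (34.4% and 6.98% over all tested genes), while 16 did not pass. Their median log2 fold change was 0.33 (0.17 without HP1a mutant library 1), beside -0.84 over all tested genes. After rescaling 2 fell and 16 rose (10.1% and 12.5% over all), and after quantile normalization 1 fell and 3 rose (9.54% and 11.0% over all). Of the 8 that fell as deposited, 7 entered the test only through their level in wildtype. They were Vha68-3, Vha36-2, Vha100-3, Vha16-2, Vha16-5, VhaPPA1-2 and VhaM9.7-d. Among the 1439 tested genes that entered in this way, 72.3% were called lower, with a median log2 fold change of -2.01.

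**Figure D1:**
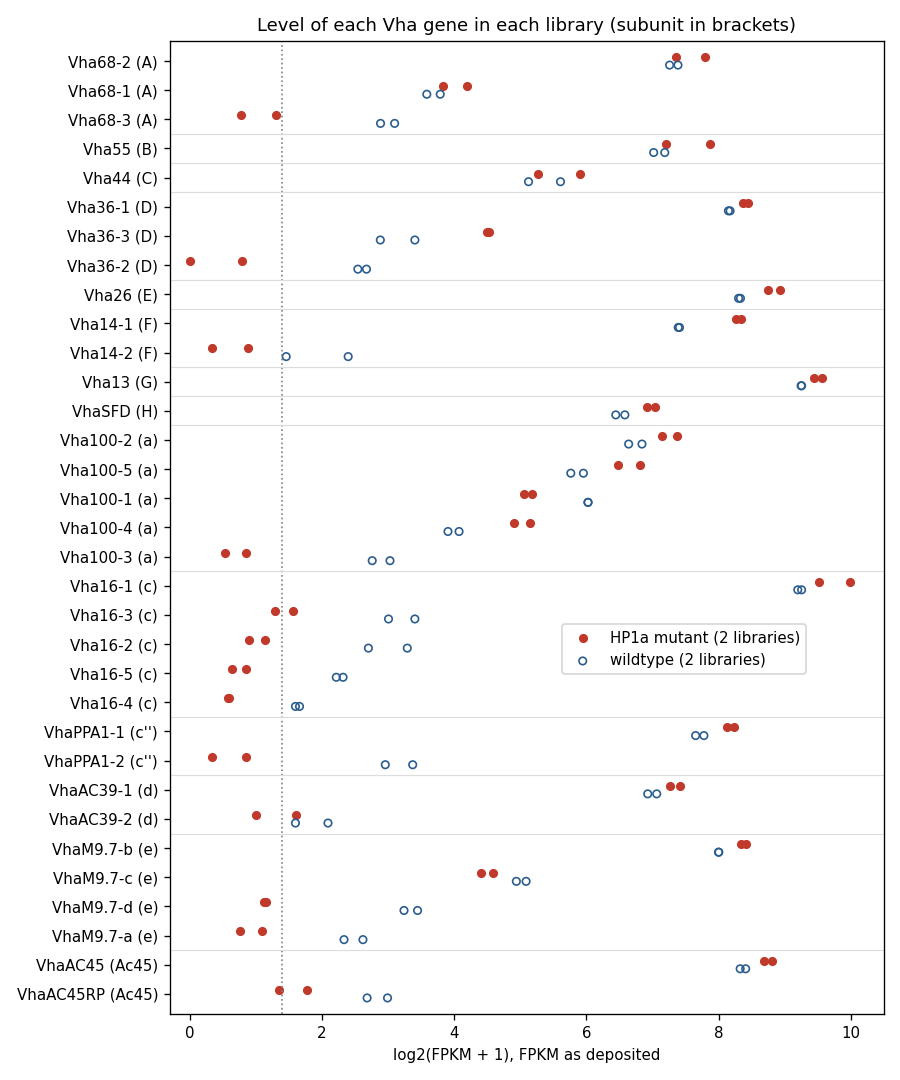
Level of each of the 33 Vha genes as log2(FPKM + 1), with 1 point per library (filled, HP1a mutant; open, wildtype) and genes grouped by subunit in brackets. The dotted line is the level of 1.4 that the mean over all 4 libraries had to exceed for a gene to be tested; the leading genes lie to the right, with all filled points beyond the open ones in 12 of 14, and the weak paralogs near the dotted line have filled points below the open ones, VhaAC39-2 excepted.

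In the V1 sector, the catalytic subunit A that binds and splits ATP comes from 3 genes. Vha68-2, the leading one (chromosome 2L, 12974322 to 12978614 in Release 5), had 222 and 163 FPKM in HP1a mutant larvae, against 152 and 166 FPKM in wildtype larvae. The genotypes overlapped, and the log2 fold change was 0.26 ± 0.22 (SE). Vha68-3, which starts 171 bp after it (12978786 to 12981301), had 0.707 and 1.47 FPKM in the mutant, against 6.39 and 7.57 FPKM in wildtype. Both mutant libraries were far below both wildtype libraries, on 14 and 28 implied fragments against 117 and 142. Vha68-3 fell by 1.96 ± 0.26 on the log2 scale (SE, adjusted p = 0.0048 in limma), and rescaling left a change of -1.30 with an adjusted p of 0.030. Vha68-3 entered the test only through its level in wildtype. Vha68-1, the remaining gene, had a log2 fold change of 0.33 ± 0.20, which did not pass as deposited (adjusted p = 0.211). It passed after rescaling (1.19, adjusted p = 0.0070) and after quantile normalization (1.11, adjusted p = 0.0074).

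Subunit B, the regulatory partner of A that also binds nucleotide, comes from Vha55 alone (3R, 8449484 to 8453551). Its level was 234 and 146 FPKM in HP1a mutant larvae, against 129 and 145 FPKM in wildtype larvae. Both mutant values were above both wildtype values, the lower one by little, and the log2 fold change of 0.44 ± 0.28 did not pass. Subunit C, the collar that joins and leaves V1 as the pump assembles, comes from Vha44, which was given the status FAIL by Cufflinks in 3 of the 4 libraries and was not tested. Its listed values were 58.6 and 37.6 FPKM in the mutant, against 33.9 and 47.8 FPKM in wildtype, and they overlapped. Vha44 also shares its locus with Hmgs.

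The central shaft is built from subunits D and F. Vha36-1, the leading gene of D (2R, 11428922 to 11430003), had 348 and 329 FPKM in HP1a mutant larvae, against 283 and 288 FPKM in wildtype larvae. The genotypes did not overlap, but the log2 fold change of 0.24 ± 0.16 did not pass. Vha36-3 (X, 2473277 to 2474330), a second gene for D, had 22.0 and 21.6 FPKM in the mutant, against 6.38 and 9.60 FPKM in wildtype. It rose by 1.36 ± 0.23 on the log2 scale (adjusted p = 0.0085), the largest rise among the tested Vha genes, with both mutant libraries well above both wildtype ones. After rescaling the change was 2.21 (adjusted p = 0.0039). Vha36-3 also passed after quantile normalization, as did Vha100-4 of subunit a and Vha68-1 of subunit A. The remaining gene, Vha36-2 (2R, 8144787 to 8146207), was listed at 0 and at 0.722 FPKM in the mutant, against 5.38 and 4.83 FPKM in wildtype. It fell by 2.22 ± 0.33 (adjusted p = 0.0063), on 7 implied fragments in HP1a mutant library 2 against 50 and 46 in wildtype, and the rescaled adjusted p was 0.030. Vha36-2 entered the test only through its level in wildtype.

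Vha14-1, the leading gene of the shaft subunit F (2R, 11566931 to 11567585), was the only leading gene past the FDR as deposited. It had 324 and 308 FPKM in HP1a mutant larvae, against 169 and 167 FPKM in wildtype larvae. Replicates lay close together and the genotypes far apart. The log2 fold change was 0.91 ± 0.16 (adjusted p = 0.0089), and 1.83 after rescaling (adjusted p = 0.0034), whereas quantile normalization gave 0.82 with an adjusted p of 0.0152. Its paralog Vha14-2 averaged 0.554 FPKM in the mutant and 3.01 FPKM in wildtype and was below the level for testing.

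The peripheral stalk, which holds the catalytic head still while the shaft turns, is made of subunits E and G. Vha26, the gene for E (3R, 1417453 to 1420429), had 488 and 428 FPKM in HP1a mutant larvae, against 321 and 315 FPKM in wildtype larvae. Vha13, the gene for G (3R, 15468980 to 15470126), had 753 and 698 FPKM in the mutant, against 611 and 607 FPKM in wildtype. Neither pair of groups overlapped. The log2 fold changes were 0.52 ± 0.17 for Vha26 (adjusted p = 0.0499) and 0.25 ± 0.16 for Vha13 (adjusted p = 0.231), and neither passed as deposited. VhaSFD encodes subunit H, which keeps V1 from splitting ATP once it is detached (2L, 16723138 to 16727825). It had 130 and 119.5 FPKM in the mutant, against 86.1 and 94.8 FPKM in wildtype, again without overlap, with a log2 fold change of 0.46 ± 0.16 (adjusted p = 0.064).

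In the V0 sector, subunit a holds the paths by which protons enter and leave the ring and sets where in the cell the pump is placed. Its 5 genes moved in different directions. Vha100-2, the leading one (3R, 14216039 to 14224876), had 165 and 140 FPKM in HP1a mutant larvae, against 98.7 and 114 FPKM in wildtype larvae. The genotypes were apart, and the log2 fold change of 0.52 ± 0.19 did not pass as deposited (adjusted p = 0.063).

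Vha100-4, described in the acid-secreting copper cells of the midgut, lies 513 bp before Vha100-2 (3R, 14212555 to 14215525) and overlaps cona. It had 28.8 and 34.5 FPKM in HP1a mutant larvae, against 14.0 and 15.8 FPKM in wildtype larvae, with no overlap. Vha100-4 rose by 1.03 ± 0.18 on the log2 scale (adjusted p = 0.0091, and 1.91 with an adjusted p of 0.0055 after rescaling). Vha100-5 had a log2 fold change of 0.78 ± 0.20, which did not pass as deposited (adjusted p = 0.026) and passed after rescaling (1.70, adjusted p = 0.0090).

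Vha100-1, the form of subunit a known from neurons and synaptic vesicles (3R, 24956772 to 24963702, overlapping Alg13), ran the other way. It had 32.3 and 35.3 FPKM in HP1a mutant larvae, against 64.1 and 64.2 FPKM in wildtype larvae. Both mutant libraries were clearly below the wildtype ones, and Vha100-1 fell by 0.90 ± 0.16 on the log2 scale (adjusted p = 0.0088), close to the median of all tested genes. After rescaling its log2 fold change was 0.00 (adjusted p = 0.998). Vha100-3 (2R, 14796505 to 14799219, overlapping sano) had 0.452 and 0.798 FPKM in the mutant, against 5.78 and 7.16 FPKM in wildtype, on 10 and 17 implied fragments against 118 and 150. It fell by 2.20 ± 0.23 (adjusted p = 0.0032) and by 1.61 after rescaling (adjusted p = 0.00999), but quantile normalization gave -1.06 with an adjusted p of 0.022, which did not pass. Vha100-3 entered the test only through its level in wildtype.

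The proton-carrying ring is formed by subunits c and c''. Vha16-1 (2R, 2512747 to 2520633) had the highest level of all Vha genes in the mutant, at 1015 and 736 FPKM in HP1a mutant larvae, against 587 and 611 FPKM in wildtype larvae. The genotypes did not overlap, but the mutant libraries lay apart from each other and the log2 fold change of 0.53 ± 0.22 did not pass (adjusted p = 0.098). Of its 4 annotated transcripts the one with the longest locus, 2512747 to 2520633, had 809 and 569 FPKM in the mutant, against 316 and 404 FPKM in wildtype, while the second, 2512747 to 2519886, had 155 and 121 FPKM in the mutant, against 204 and 130 FPKM in wildtype. The longest was apart between the genotypes in the direction of the whole gene, and the second lower in the mutant only on average, since the genotypes overlapped. Reads of the shared exons were divided between these transcripts by Cufflinks.

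Vha16-2 (3L, 11468058 to 11468652), a second ring gene, had 0.870 and 1.20 FPKM in HP1a mutant larvae, against 8.79 and 5.51 FPKM in wildtype larvae. It fell by 1.98 ± 0.28 on the log2 scale (adjusted p = 0.0054), on 3 and 4 implied fragments against 28 and 18, and its rescaled adjusted p was 0.027. Vha16-5 (2L, 10736319 to 10737576, overlapping CG12299) had 0.556 and 0.802 FPKM in the mutant, against 3.65 and 3.99 FPKM in wildtype. Both genotypes kept close replicates and stayed apart. It fell by 1.52 ± 0.20 (adjusted p = 0.0050), and rescaling gave -0.96 with an adjusted p of 0.029. Both Vha16-2 and Vha16-5 entered the test only through their level in wildtype. Vha16-3, which lies 985 bp from Vha16-2 and had the status LOWDATA in 1 library, averaged 1.70 FPKM in the mutant and 8.32 FPKM in wildtype, and Vha16-4, below the level for testing, had 0.491 and 0.509 FPKM in the mutant, against 2.16 and 2.03 FPKM in wildtype.

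VhaPPA1-1, the leading gene of c'' (3R, 10728048 to 10729796), had 299.7 and 278 FPKM in HP1a mutant larvae, against 200.3 and 219 FPKM in wildtype larvae. The genotypes did not overlap, and the log2 fold change of 0.46 ± 0.16 did not pass as deposited (adjusted p = 0.063). VhaPPA1-2, 2048 bp away (3R, 10725361 to 10725999), had 0.261 and 0.812 FPKM in the mutant, against 6.77 and 9.36 FPKM in wildtype, on 1 and 3 implied fragments against 24 and 34. It had the largest fall among the tested Vha genes, by 2.57 ± 0.29 on the log2 scale (adjusted p = 0.0036), and by 1.98 with an adjusted p of 0.0115 after rescaling. VhaPPA1-2 was among the 1439 tested genes that entered only through wildtype, whose median log2 fold change was -2.01.

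Subunit d links the ring to the central shaft, and subunit e is a small membrane protein of V0. VhaAC39-1, the leading gene of d (X, 3774773 to 3777004), had 169.9 and 153 FPKM in HP1a mutant larvae, against 121 and 133 FPKM in wildtype larvae. VhaM9.7-b, the leading gene of e (3L, 21532946 to 21533798), had 342 and 323 FPKM in the mutant, against 255 and 256 FPKM in wildtype. In both cases all mutant values lay above all wildtype values, and neither log2 fold change passed, at 0.34 ± 0.17 for VhaAC39-1 and 0.38 ± 0.16 for VhaM9.7-b. VhaM9.7-d (3R, 12800926 to 12801419) had 1.17 and 1.22 FPKM in the mutant, against 8.46 and 9.90 FPKM in wildtype, on 3 and 3 implied fragments against 20 and 24. It fell by 2.21 ± 0.18 (adjusted p = 0.0025), and by 1.53 after rescaling (adjusted p = 0.0055). VhaM9.7-d was the only Vha gene past the FDR under all 3 scalings in the downward direction, quantile normalization included (-1.09, adjusted p = 0.0092). The same filter preceded each scaling, and VhaM9.7-d entered the test only through its level in wildtype. Of the 1439 tested genes that entered in this way 72.3% were called lower as deposited.

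The log2 fold changes of VhaM9.7-c and VhaAC39-2 were -0.51 and -0.54 and did not pass; under rescaling they were 0.38 and 0.08. VhaM9.7-a, with the status LOWDATA in 2 libraries, averaged 0.906 FPKM in the mutant and 4.59 FPKM in wildtype. VhaAC45, which encodes the accessory protein homologous to mammalian ATP6AP1 (2R, 5095067 to 5097167), had 448 and 410 FPKM in HP1a mutant larvae, against 320.1 and 339 FPKM in wildtype larvae. The groups were apart, and the log2 fold change was 0.38 ± 0.16 (adjusted p = 0.103). Its paralog VhaAC45RP had the status LOWDATA in 2 libraries and averaged 1.99 FPKM in the mutant and 6.19 FPKM in wildtype. ATP6AP2, the gene of the other accessory protein, does not carry a Vha symbol and had 246 and 259.5 FPKM in the mutant, against 186 and 183 FPKM in wildtype (log2 fold change 0.45, adjusted p = 0.059, and 1.37 with an adjusted p of 0.0080 after rescaling).

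**Figure D2:**
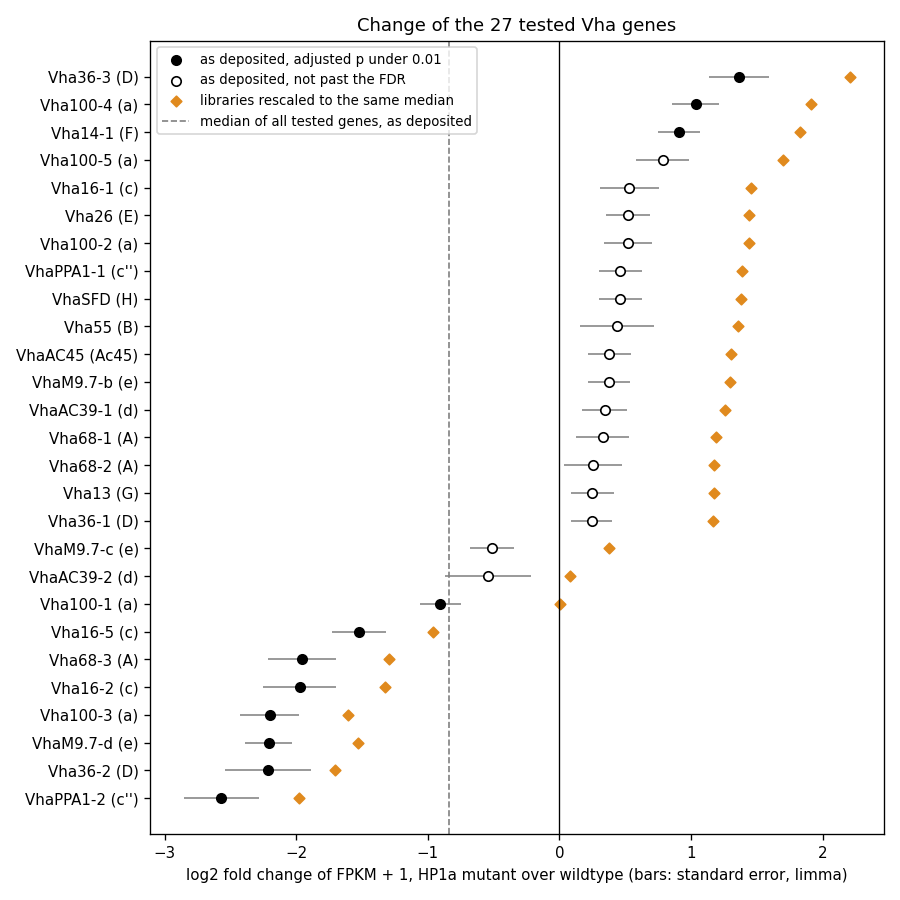
Log2 fold change of FPKM + 1, HP1a mutant over wildtype, of the 27 tested Vha genes, ordered from high to low, with the standard error from limma (circles, filled where the adjusted p was under 0.01) and the value after rescaling the libraries to the same median (diamonds). The dashed line at -0.84 is the median of all 9447 tested genes; 13 leading genes lie between 0.24 and 0.91, and the diamonds of all but the 7 lowest genes lie at or above 0.

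Across subunits the leading genes kept to a narrow range. The 13 tested leading genes had log2 fold changes between 0.24 and 0.91 as deposited, between 1.17 and 1.83 after rescaling and between 0.13 and 0.82 after quantile normalization, so that every one was positive under each of the 3 scalings. Of all tested genes 22.7% were positive as deposited, 49.0% after rescaling and 47.2% after quantile normalization. All 13 had a mean of at least 100 FPKM over the 4 libraries. Of the 928 tested genes of that level 47.3% were positive as deposited, 74.6% after rescaling and 45.7% after quantile normalization. Among the 928, 208 were called higher as deposited, 302 after rescaling and 195 after quantile normalization. Vha14-1 alone passed the FDR as deposited, 12 of the 13 after rescaling (12.5% of all tested genes were called higher) and none after quantile normalization. After rescaling Vha55 did not pass, with an adjusted p of 0.0104. The summed FPKM of V1 genes without Vha44 was 2540 and 2229 in HP1a mutant larvae, against 1782 and 1822 in wildtype larvae, a ratio of means of 1.32. That of V0 genes was 2169 and 1844 in the mutant, against 1471 and 1561 in wildtype, also a ratio of 1.32. V1 over V0 was 1.17 and 1.21 in the mutant, against 1.21 and 1.17 in wildtype. The sums of both sectors were thus apart between genotypes while their ratio was not. With so few libraries the smallest two-sided p of an exact permutation test is 0.33, so these sums carry no test.

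The share of a subunit's FPKM held by each of its genes does not depend on the scaling of a library. In 8 of the 9 subunits with paralogs the leading gene held a larger share in both HP1a mutant libraries than in either wildtype library, and of the 19 other genes 15 held a smaller share and 4 a larger one (Vha68-1, Vha36-3, Vha100-5 and Vha100-4), with no overlap. Shares within a subunit add up to 100%, so these 2 counts are not separate results. Leading genes were picked by level, and as deposited the median over all tested genes was -1.06 below 10 FPKM and -0.08 from 100 FPKM. No matching count of shares over all genes was made. The exception was subunit D, where Vha36-3 held 5.94% and 6.14% in the mutant, against 2.16% and 3.18% in wildtype. For subunit a, Vha100-2 held 52.5% and 43.5% in the mutant, against 41.8% and 43.4% in wildtype, so that 1 mutant library stood barely above wildtype.

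Within subunit a the share of the neuronal form differed most in percentage points, and that of Vha100-3 most as a ratio. Vha100-1 held 10.3% and 10.9% of the FPKM of subunit a in HP1a mutant larvae, against 27.2% and 24.5% in wildtype larvae. Vha100-5 held 27.9% and 34.6% in the mutant, against 22.6% and 23.3% in wildtype, and Vha100-4 held 9.16% and 10.7% in the mutant, against 5.93% and 6.05% in wildtype. Vha100-3 held 0.144% and 0.247% in the mutant, against 2.45% and 2.74% in wildtype. For subunit e, VhaM9.7-b held 93.9% and 92.7% in the mutant, against 85.8% and 84.2% in wildtype. In the ring, Vha16-1 held 99.6% and 99.5% of subunit c in the mutant, against 96.4% and 96.7% in wildtype, so the other 4 ring genes together were a small part in every library. These shares carry no test, for the same reason as the sums.

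**Figure D3:**
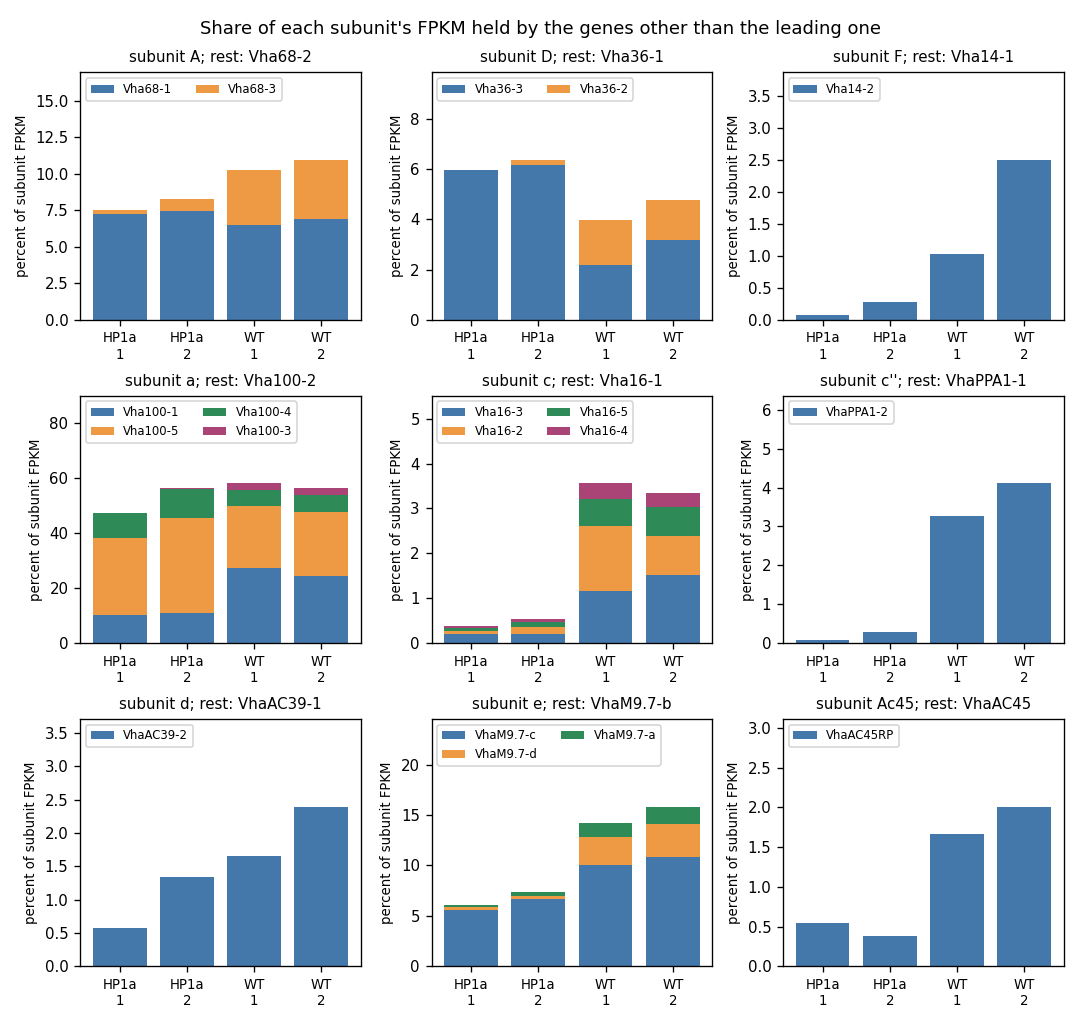
Percent of the summed FPKM of each subunit held by the genes other than the leading one, stacked, in each HP1a mutant (HP1a 1 and 2) and wildtype (WT 1 and 2) library, for the 9 subunits with paralogs; the remainder up to 100% belongs to the gene named in the panel title, and the panels have different vertical scales. The stacks are lower in the mutant in every panel except subunit D, where Vha36-3 brings them up.

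As deposited and after rescaling, changes over all genes differed with level. Of 928 tested genes with a mean of at least 100 FPKM over the 4 libraries, 47.3% had a positive log2 fold change and the median was -0.08, and the 13 Vha genes of that level were all positive with a median of 0.44. After rescaling 74.6% of the 928 were positive with a median of 0.84, and 302 were called higher, while the 13 Vha genes had a median of 1.36. Of 4104 tested genes below 10 FPKM the median as deposited was -1.06, and the 8 Vha genes of that level were all negative with a median of -2.09. After quantile normalization this trend over all genes was absent, with medians of 0.005 below 10 FPKM and -0.12 from 100 FPKM. The medians of the Vha genes at these levels were then -0.92 and 0.39. These levels were chosen after the values were seen. The 8 weak Vha genes had means in the mutant at or below the level for testing, so they entered only through wildtype, and 7 of them were called lower. Of all tested genes 1439 entered in the same way, and 72.3% of those were called lower, with a median log2 fold change of -2.01. The count of 8 Vha genes that fell is to be read against that share, and only Vha100-1 among the 8 was above the level in the mutant.

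**Figure D4:**
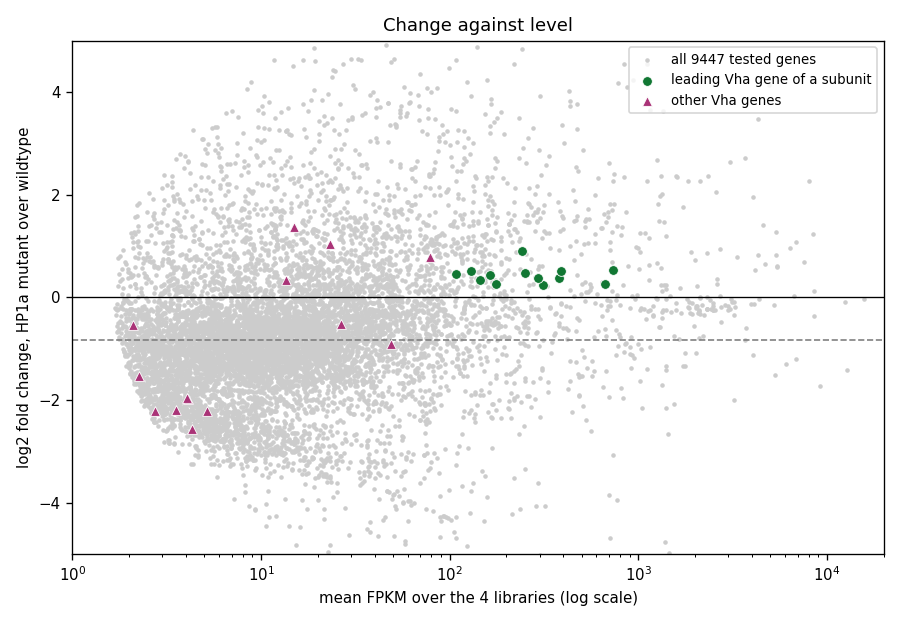
Log2 fold change, HP1a mutant over wildtype, against mean FPKM over the 4 libraries (log axis) for all 9447 tested genes (grey), the 13 tested leading Vha genes (circles) and the 14 other tested Vha genes (triangles); the dashed line is the median of all genes, and 96 genes outside the plotted range are not shown. The circles form a band just above 0 at high levels, and 8 triangles lie below 0 at levels under 10 FPKM.

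The 33 genes lie on 2L (6), 2R (8), 3L (5), 3R (12) and X (2), and none lies on chromosome 4. Among neighbouring genes of 1 subunit, Vha68-2 and Vha68-3, and VhaPPA1-1 and VhaPPA1-2 (with 1 gene between them), each pair a highly expressed gene without a call with a weak one that fell. Vha100-2 and Vha100-4 both had more FPKM in both mutant libraries, and Vha16-2 and Vha16-3 both had less. For 7 Vha genes the locus overlaps another named gene (Vha100-1, Vha100-3, Vha100-4, Vha16-4, Vha16-5, VhaM9.7-c and Vha44). Whether counting used strand is not given in the sources used here, so reads of such pairs, and of paralogs of near-identical sequence, may be shared.

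Of 39 tested genes that work with the pump 79.5% had negative log2 fold changes as deposited, close to the 77.3% of all tested genes. Of 4 genes for its assembly and regulation (Rbcn-3A, Rbcn-3B, mtd and Mitf, the transcription factor of lysosomal genes, which lies on chromosome 4), none passed the FDR, and the median log2 fold change was -0.69, or 0.16 after rescaling. Among 8 proton-coupled exchangers and chloride channels, which use or balance the proton gradient, 2 fell and 1 rose, where 34.4% of all tested genes fell and 6.98% rose. Nhe3 had 7.91 and 4.86 FPKM in HP1a mutant larvae, against 19.1 and 19.7 FPKM in wildtype larvae (log2 fold change -1.50, adjusted p = 0.0085). Nha2 had 20.6 and 20.6 FPKM in the mutant, against 5.33 and 6.30 FPKM in wildtype (log2 fold change 1.67, adjusted p = 0.0030). Both genes were apart between the genotypes, and after rescaling Nhe3 did not pass.

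Of 19 tested lysosomal genes, whose products work in the compartment that the pump acidifies, 4 fell and 2 rose as deposited, with a median log2 fold change of -0.89, where over all tested genes 34.4% fell, 6.98% rose and the median was -0.84. The protease gene cathD had 111 and 219 FPKM in HP1a mutant larvae, against 970.2 and 950.2 FPKM in wildtype larvae (log2 fold change -2.61, adjusted p = 0.0055). The mannosidase gene LManV had 274 and 199 FPKM in the mutant, against 12.3 and 11.4 FPKM in wildtype (log2 fold change 4.19, adjusted p = 0.0021). After rescaling none of the lysosomal genes fell, and cathD had a change of -1.69 with an adjusted p of 0.038. Among 8 genes of the TORC1 kinase pathway at the lysosome, Nprl2 alone fell, at 4.84 and 5.15 FPKM in the mutant, against 14.7 and 17.9 FPKM in wildtype (log2 fold change -1.52, adjusted p = 0.0037), and its rescaled adjusted p was 0.040.

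Marker genes of tissues rich in the pump, or in its paralogs, differed between the genotypes as well, and their part in the Vha results was not tested. In RNA of whole larvae, fewer cells of a type and less RNA per cell cannot be told apart. All 16 testis markers were lower in both mutant libraries, as were 66.0% of all detected genes, and 9 of the 11 tested fell with none higher, where 34.4% of all tested genes fell. Their summed FPKM was 107 and 118 in HP1a mutant larvae, against 933 and 1228 in wildtype larvae. The weakly expressed marker can was listed at 0.289 and 0 FPKM in the mutant, against 0.804 and 1.61 FPKM in wildtype, and was not tested. Mst84Db, a sperm tail gene, had 23.4 and 25.4 FPKM in the mutant, against 255 and 314 FPKM in wildtype (log2 fold change -3.49, adjusted p = 0.0021). After rescaling 6 of the 11 fell. The 7 neural markers had 3 tested genes, of which elav and Syt1 fell and none rose, elav with 2.24 and 1.31 FPKM in the mutant, against 6.38 and 6.59 FPKM in wildtype (log2 fold change -1.45, adjusted p = 0.0076), and no neural marker passed after rescaling.

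Of 9 Malpighian tubule markers 6 were tested, 1 rose and 1 fell. This count and those of the next 3 lists stand beside 6.98% higher and 34.4% lower over all tested genes. Uro, the urate oxidase of tubule cells, had 215 and 206 FPKM in HP1a mutant larvae, against 25.5 and 28.4 FPKM in wildtype larvae (log2 fold change 2.92, adjusted p = 0.0021). The aquaporin gene Drip had 37.0 and 39.6 FPKM in the mutant, against 72.9 and 76.0 FPKM in wildtype, and did not pass after rescaling. Of 11 midgut enzyme genes 2 rose and none fell, and Mal-A1 among the risers had 148 and 115 FPKM in the mutant, against 31.8 and 18.7 FPKM in wildtype. In both mutant libraries 8 of the 11 were higher and 2 lower, where 15.4% and 66.0% of all detected genes were. The 2 lower ones were Amy-p and Amy-d, with log2 fold changes of -2.19 and -2.40 that did not pass. The summed FPKM of the 11 genes was 14581 and 21117 in the mutant, against 9175 and 12811 in wildtype. The 4 copper cell markers had no call among the 2 tested, and their defining gene lab was under 0.5 FPKM in every library. All 5 tested salivary glue genes fell, and the 6 genes together had 75.0 and 484 FPKM in the mutant, against 49634 and 53125 FPKM in wildtype.

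The calls of single Vha genes rested on both wildtype libraries. Without wildtype library 1 or without wildtype library 2, limma called none of the Vha genes and none of all genes, with 6 and 5 Vha genes at an unadjusted p under 0.05 (4476 and 4351 of all genes), and the lone wildtype library was then assumed to vary like the mutant ones. Without HP1a mutant library 1 the median log2 fold change over the 28 Vha genes then tested was 0.17, and without HP1a mutant library 2 it was 0.42.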

How the data were processed

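RNA-seq of whole larvae of the last instar was analysed, 2 duplicate biological samples of each genotype. The deposited values are FPKM of RefSeq transcripts, each with its confidence bounds and status, which the authors made with TopHat and Cufflinks (named in the submitters' processing notes, versions not given in the sources used here), each library on its own, on rRNA-depleted cDNA; scaffold names are those of Release 5. FPKM depends on the composition of the whole library, so a few very abundant genes can shift all others.

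Transcripts were assigned to genes by a RefSeq table used for names only; 1220 of 22608 transcripts matched no gene and were left out. FPKM was summed per gene. Genes with mean log2(FPKM + 1) above 1.4 and the status OK in all 4 libraries entered a two-sided moderated test with a variance trend (limma 3.58.1, R 4.3.3) with Benjamini-Hochberg adjustment over all tested genes at an FDR of 0.01. Fold changes are on the log2(FPKM + 1) scale, which understates changes of weakly expressed genes. Count tools were not used, since FPKM are not counts. Implied fragments were derived from the bounds. Tables and plots used Python 3.11.15, pandas 2.3.3, numpy 2.4.6 and matplotlib 3.10.9. The fit was tested on simulated data.

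Alternatives were other pseudocounts and filters, genes of any status, rescaling, quantile normalization, no trend, a replicate block and each library left out. Values in every library are given for the leading gene of each subunit (highest mean FPKM) and every Vha gene past the FDR; in other lists, for the called genes with the largest rise and fall. ATP6AP2, and single markers named beside their lists, were added after their values were seen. The members and lists were chosen with earlier results of these data known. ChIP-chip profiles were not used here. Same-numbered libraries did not deviate together (r = 0.028 across 9447 genes, which are not independent replicates). This compares only the difference within each genotype, so it cannot decide whether same-numbered libraries were prepared together. The main fit did not pair them.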

Additional observations from a re-analysis of the deposited data

How the results depend on the processing

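The number of Vha genes that fell (8 as reported) was 2 among genes with a mean above 5 FPKM, 2 after rescaling to the same median and 1 after quantile normalization, and lay between 0 and 7 when a library was left out. The number that rose (3) was 1 without the filter on low values, 16 after rescaling and 0 with the replicate block, and between 0 and 3 when a library was left out. Over all genes, 3249 fell and 659 rose as reported; rescaling gave 957 and 1178, quantile normalization 901 and 1039, and leaving out a library 0 to 4255 and 0 to 873. The median over the tested Vha genes was a log2 fold change of 1.19 after rescaling, 0.17 without HP1a mutant library 1 and 0.42 without HP1a mutant library 2 (0.33 as reported), and the log2 ratios of the summed FPKM, 0.40 for V1 without Vha44 and 0.40 for V0, became 1.33 and 1.33; leaving out a library gave 0.31 to 0.50 for V1. Single genes changed sign under rescaling, Vha100-1 to 0.0006, VhaAC39-2 to 0.0768 and VhaM9.7-c to 0.38, and under quantile normalization, VhaAC39-2 to 0.65 and VhaM9.7-c to 0.006. The cause of these differences was not tested, except that rescaling and the filters shift or remove genes by construction. With the replicate block 7 of the 27 tested Vha genes fell and 0 rose, where 2337 and 576 of all 9447 tested genes did. In that fit Vha100-1, Vha100-4, Vha14-1 and Vha36-3 had adjusted p between 0.0114 and 0.0247. Over all genes 2337 fell and 578 rose among those with a mean above 5 FPKM, and 3112 and 606 without the filter on low values. Without HP1a mutant library 1 or 2 the calls of Vha16-2 and Vha36-3 were lost, and without library 2 also that of Vha100-4. Depth limits the weak genes: VhaPPA1-2, Vha16-2 and VhaM9.7-d rest on at most 4 fragments in each mutant library.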
